A study of Mus musculus with 10 samples.

Results

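Inflammatory signalling genes were measured in clonal 3T3-L1 lines before differentiation. The set holds 34 genes for cytokines, chemokines, complement proteins and the factors that limit or accompany their production, chosen by gene symbol. On the array, 31 of them had a probe set annotated to that symbol alone, out of 19937 genes with one, and the brightest probe set stood for the gene where there were several. Of these 31, 27 passed an intensity filter and were tested among 16339 genes. To pass, a gene had to lie above the 25th percentile of an array, 6.38 to 6.47, in at least 5 of the 10 arrays. Il1a, Il6, Csf2 and Cxcl2 did not pass, and the expression of Il1r1, Il1rl1 and C3 was not analysed here.

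3T3-L1 is an established mouse preadipocyte line. Clones had been grown from single colonies, kept below confluence and sorted by how much triglyceride they held after insulin, dexamethasone and IBMX. RNA came from proliferating cells in DMEM with 10% serum, given no treatment, so the cells measured had not met that cocktail. The Low class held clone 1E7 as replicate 1, 2D7 as 2, 2F1 as 3, 4D11 as 4 and 4H4 as 5. The High class held clone 3F4 as replicate 1, 4D2 as 2, 4E3 as 3, 5C4 as 4 and 5D4 as 5. All lines share the 3T3-L1 origin, each is 1 clone, and each gave 1 array, so differences between clones and between arrays cannot be told apart. Values are log2 intensities after RMA, a method that corrects background and makes arrays alike. They compare a gene between lines and not genes with each other. Any pair of arrays correlated at 0.982 to 0.995 over all probe sets.

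Fibroblasts and preadipocytes make cytokines and chemokines when tumour necrosis factor, interleukin-1 or microbial products activate the transcription factor NF-kB. Chemokines draw leukocytes towards the source, CC chemokines mainly monocytes, eosinophils and lymphocytes and several CXC chemokines neutrophils. NF-kB also switches on its own inhibitors, and sustained signalling of this kind is known to restrain adipocyte differentiation.

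None of the 27 tested genes passed the comparison of High with Low lines, while several differed widely from clone to clone within each class. Lcn2, for the iron-sequestering innate defence protein lipocalin 2, spanned 3.25 on the log2 scale, a 9.52-fold range. Between classes, 0 of the 27 were higher and 0 were lower at a limma adjusted p under 0.05. Over all tested genes that share was 0.00612% higher and 0.0% lower. At an unadjusted limma p under 0.05, 0 were higher and 2 were lower in High lines, where 3.16% and 4.79% of all tested genes were, or 7.95% in either direction. The 2 were Ptgs2 and Tnfaip3. In 0 members did the High and Low values not overlap, against 1.57% of all tested genes, 0.526% with High lines higher and 1.04% with High lines lower. Differences ran from -0.45 to 0.60, 16 positive and 11 negative, with a median of 0.04 beside 0.021 over all tested genes. In bulk RNA, fewer cells making a transcript and less transcript per cell cannot be told apart.

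**Figure D1:**
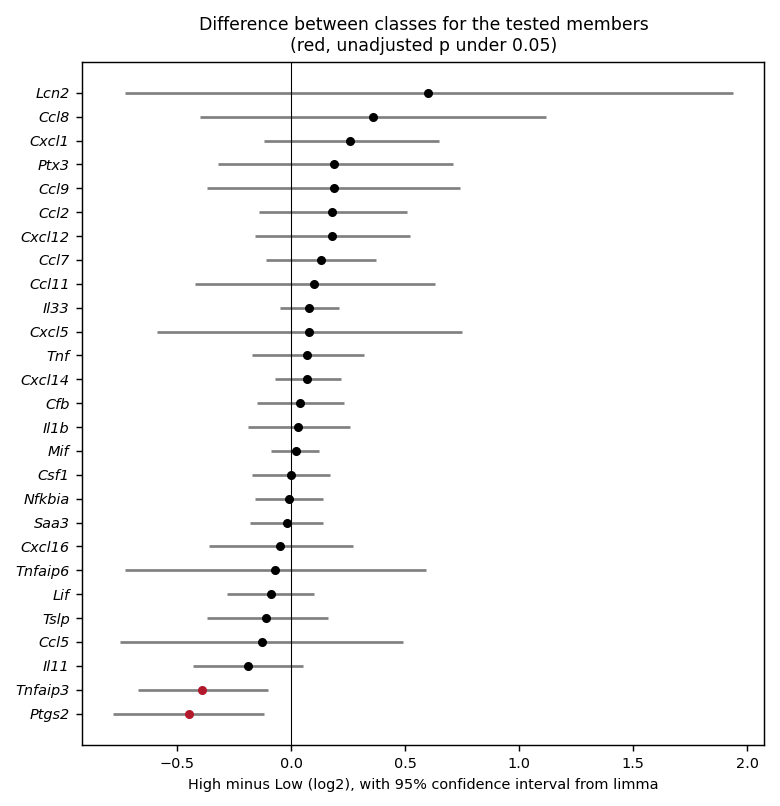
Difference between classes for the 27 tested members, High minus Low on the log2 scale. Points are limma estimates, bars their 95% confidence intervals, and red marks an unadjusted p under 0.05, which Ptgs2 and Tnfaip3 alone reached.

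Variation between lines was wide for a large part of the set. A range, the highest minus the lowest of the 10 values, of at least 1 on the log2 scale was found in 11 of the 27 members, or 40.7%, while 5.86% of all tested genes reached it. The 11 were the chemokine genes Ccl5, Ccl8, Ccl9, Ccl11, Cxcl1, Cxcl5 and Cxcl12, the prostaglandin enzyme gene Ptgs2, and Lcn2, Ptx3 and Tnfaip6. At a stricter range of 1.5 it was 5 members, beside 1.92% of all tested genes. The other 16 members ranged over 0.07 to 0.87. The range was used to pick the 11, and the members were chosen with earlier results of these data known. These shares are therefore a description without a test.

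**Figure D2:**
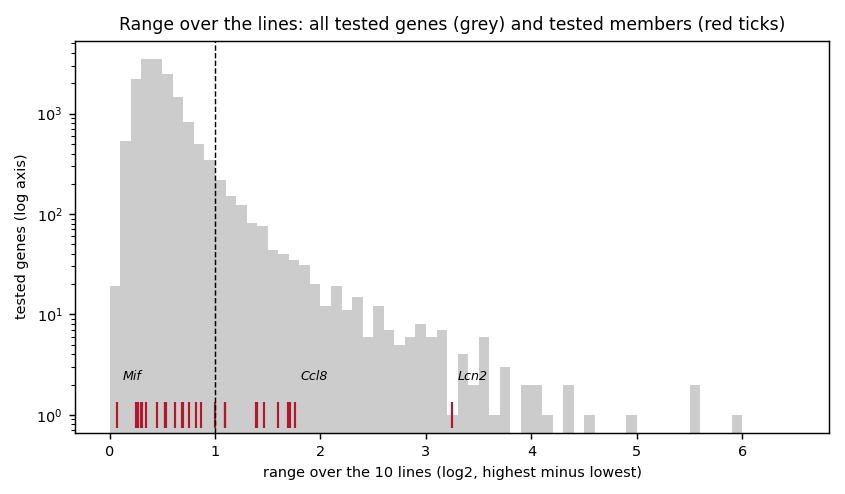
Number of tested genes by range over the 10 lines, in bins of 0.1 log2 on a log count axis (grey bars), with the 27 tested members as red ticks at the foot and a dashed line at 1. Mif lies at 0.07, Ccl8 at 1.76 and Lcn2 at 3.25.

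Among the interleukin genes above the filter, none ranged over 1 or more. Il1b and Il33, for cytokines of the interleukin-1 family, had class means between 6.64 and 6.82, below the array medians of 7.74 to 7.84. Their ranges were 0.53 and 0.25. Il1a, for another member of that family, lay under the filter in all 10 lines, and its class means were 5.49 and 5.45. Il11, an interleukin-6 family cytokine, averaged 8.35 ± 0.15 over Low and 8.16 ± 0.22 over High lines (SD, n = 5), and Lif of the same family 7.09 ± 0.16 and 7.0 ± 0.12. Neither difference passed, with limma adjusted p of 0.71 for Il11 and 0.819 for Lif.

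Il6, the acute inflammatory cytokine gene, stood above the 25th percentile in 3 lines only, so its range of 2.01 was not counted above. It measured 5.21, 7.08, 5.07, 5.50 and 5.43 in Low replicates 1 to 5, and 6.73, 6.58, 6.19, 6.40 and 5.58 in High replicates 1 to 5. The highest value of all belonged to a Low line, clone 2D7, while the other 4 Low lines lay below every High line. The class difference of 0.63 had an exact permutation p of 0.159, two-sided over lines, where 0.00794 is the smallest possible.

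Other cytokine genes also differed little. Tnf, for tumour necrosis factor, had class means of 6.81 and 6.88, below the median of every array. Csf1, for the macrophage growth factor, averaged 12.59 in both classes with a range of 0.30. Tslp, an epithelial and stromal cytokine gene, averaged 7.31 ± 0.28 over Low and 7.21 ± 0.14 over High lines (SD, n = 5). Mif, for macrophage migration inhibitory factor, ranged over 0.07. It has processed copies elsewhere in the genome and 3 probe sets here, which differed by -0.05 to 0.02 between classes. Csf2, for granulocyte-macrophage colony-stimulating factor, lay under the filter in all lines at 5.79 and 5.84.

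Among the 6 CC chemokines, 4 ranged over at least 1. Ccl2 and Ccl7, monocyte attractants encoded side by side, moved within narrower bounds. Ccl2 measured 12.22, 13.01, 12.58, 12.27 and 12.82 in Low replicates 1 to 5, and 12.76, 12.55, 12.69, 12.80 and 13.04 in High replicates 1 to 5. For Ccl7 the values were 12.68, 13.06, 12.82, 12.50 and 12.93, then 12.90, 12.80, 12.81, 12.93 and 13.19. In each case clones 1E7 and 4D11 were lowest and 5D4 and 2D7 highest, and the classes overlapped. The class differences were 0.18 (limma adjusted p = 0.789) and 0.13 (limma adjusted p = 0.797).

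Ccl8, another chemokine gene of the same cluster on chromosome 11, separated lines more widely. It measured 6.92, 8.29, 7.85, 6.80 and 7.85 in Low lines and 8.56, 6.88, 7.66, 7.88 and 8.51 in High lines, each in replicate order. Clones 4D11, 4D2 and 1E7 were lowest, between 6.80 and 6.92, and clones 2D7, 5D4 and 3F4 highest, between 8.29 and 8.56, so low and high values occurred in both classes. The class difference was 0.36 (SE 0.35, 95% confidence interval -0.40 to 1.12).

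Ccl11, which encodes the eosinophil attractant eotaxin and lies beside Ccl7, lay between 7.75 and 8.47 in all lines but 1. Low lines measured 8.16, 8.47, 8.04, 7.75 and 7.96, and High lines 7.87, 7.79, 8.11, 7.94 and 9.20. Clone 5D4 exceeded every other line, and without it the class difference of 0.10 became -0.15.

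Ccl5, for the T cell and monocyte attractant RANTES, was high in the same clone. Low lines measured 9.35, 10.40, 9.59, 9.52 and 9.79, and High lines 9.19, 8.95, 9.78, 9.45 and 10.64. Clones 5D4 and 2D7 lay apart at the top, and the other 8 ran from 8.95 to 9.79. The difference of -0.13 (95% confidence interval -0.75 to 0.49) turned to 0.04 without clone 2D7 and to 0.03 without clone 4D2.

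Ccl9, an attractant of CCR1-bearing cells encoded next to Ccl5, had another order. Low lines measured 10.78, 10.78, 10.07, 9.64 and 10.98, and High lines 11.04, 10.02, 10.87, 10.56 and 10.68. Clones 4D11, 4D2 and 2F1 were low, and the remaining 7 lay between 10.56 and 11.04. Its class difference was 0.19 (SE 0.26), and -0.02 without clone 4D11.

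The CXC chemokines include neutrophil attractants and the homeostatic gene Cxcl12. Cxcl1, a neutrophil attractant that NF-kB activates, measured 9.16, 10.13, 10.18, 9.65 and 9.76 in Low lines and 10.03, 10.25, 9.95, 10.23 and 9.73 in High lines. Clone 1E7 was lowest, and the High lines all lay between 9.73 and 10.25. The difference of 0.26 (95% confidence interval -0.12 to 0.65) did not pass, with a limma adjusted p of 0.763. The promoter window of Cxcl1 is shown as that of a variable chemokine gene. It covers 250 bases before to 50 after the RefSeq transcript start, chr5:90890995-90891294 on the plus strand of GRCm38.p6. Capitals mark matches, on either strand, to 3 motifs: GGGA and CC with any 4 bases between them for NF-kB, TTNNGCAA for C/EBP factors and TGACGT for CREB and ATF factors.
Cxcl1: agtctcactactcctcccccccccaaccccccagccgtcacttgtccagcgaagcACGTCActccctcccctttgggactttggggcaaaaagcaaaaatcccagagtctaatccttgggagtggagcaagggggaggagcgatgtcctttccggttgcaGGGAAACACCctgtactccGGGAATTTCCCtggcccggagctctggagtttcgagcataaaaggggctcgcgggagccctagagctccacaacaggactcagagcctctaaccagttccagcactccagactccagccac
The run GGGAATTTCC, 71 bases before the start, overlaps a match on the other strand, so the capitals there form a longer run. GGGAAACACC lies 90 bases before the start, and ACGTCA, the reverse complement of TGACGT, 195 bases before it. The other variable chemokine genes with a window, Ccl8, Ccl9 and Cxcl12, held no match to the 3 motifs there. The window of Tnfaip6 held none either, while that of Ptx3 held GGGAACTCCC at the start and TTGTGCAA 57 bases before it.

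Cxcl5, for another neutrophil attractant on the same stretch of chromosome 5, ranged over 1.60. Low lines measured 9.76, 11.33, 10.55, 9.98 and 10.41, and High lines 10.39, 11.36, 10.59, 10.32 and 9.77. The highest 2 values, in clones 4D2 and 2D7, came from opposite classes, and so did the lowest 2, in clones 1E7 and 5D4. The class difference was 0.08 (SE 0.31), and it was -0.08, -0.03 and -0.14 without clone 1E7, 4D11 or 4D2. Cxcl2, which adjoins Cxcl1, lay under the filter in 9 of 10 lines, with class means of 6.15 and 6.29.

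Cxcl12, which holds CXCR4-bearing cells in stromal niches, measured 12.55, 12.30, 12.63, 12.40 and 12.22 in Low lines. High lines measured 12.75, 12.72, 13.00, 12.54 and 12.00, so the highest and the lowest value were both High. Its range of 1.0 became 0.81 after the median of the 50 nearest genes on chromosome 6 was subtracted, and that median ranged over 0.30 between lines. Without clone 5D4 the class difference went from 0.18 to 0.33 (limma adjusted p = 0.361). Cxcl14 and Cxcl16 ranged over 0.31 and 0.62, with class differences of 0.07 and -0.05.

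**Figure D3:**
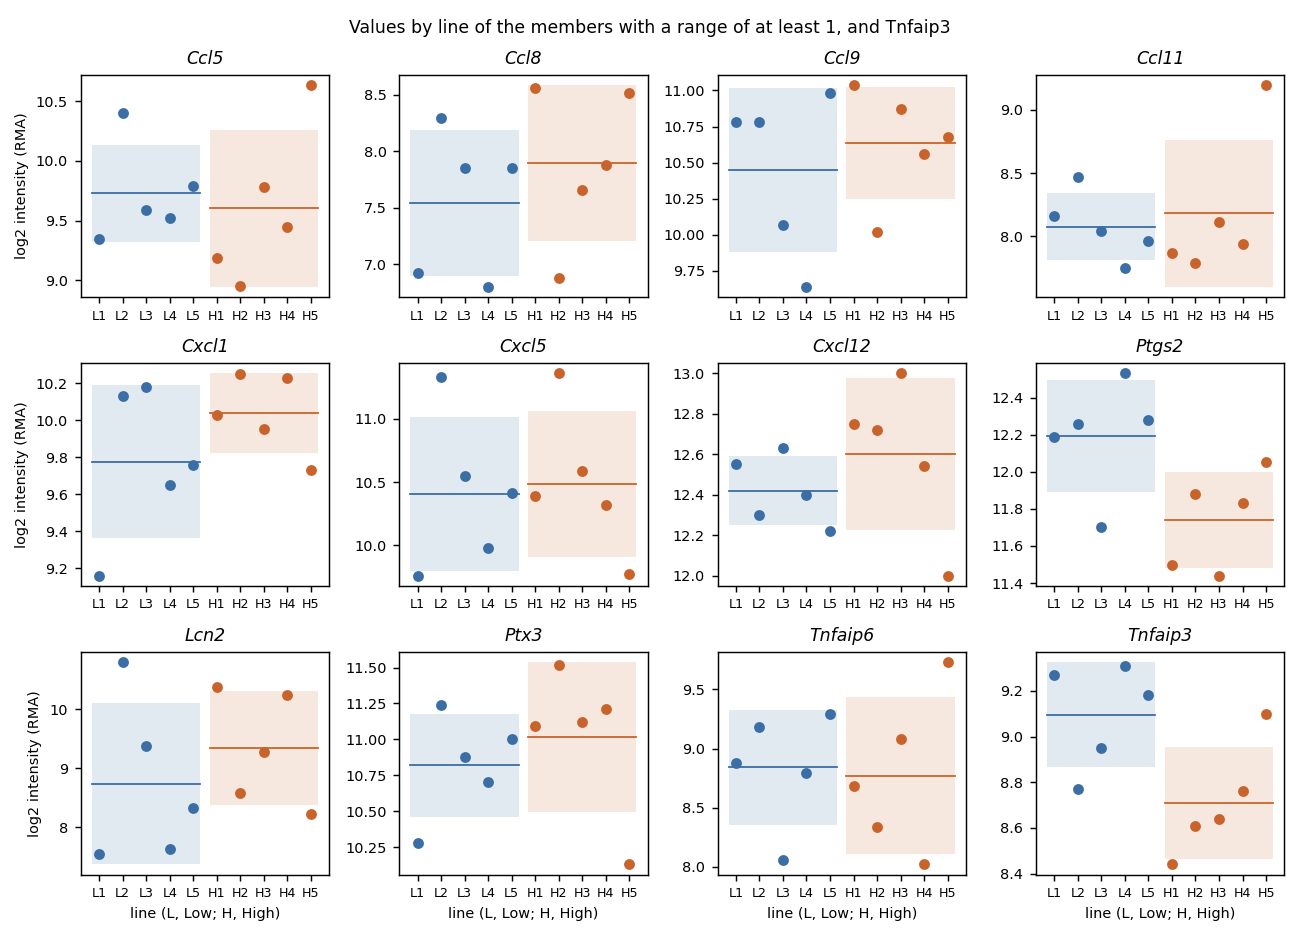
Log2 intensity in each of the 5 Low lines (L1 to L5, blue) and 5 High lines (H1 to H5, orange) for the 11 members with a range of at least 1 and for Tnfaip3. Horizontal lines are class means and shading 1 SD, and each panel has its own scale. Classes overlap in all 12 panels, Ptgs2 and Tnfaip3 having the smallest unadjusted p.

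Ptgs2 and Tnfaip3 were the members with the smallest p, each lower on average in High lines and neither past the adjustment. Ptgs2 encodes cyclooxygenase-2, the inducible enzyme that starts prostaglandin synthesis. It measured 12.19, 12.26, 11.70, 12.53 and 12.28 in Low lines and 11.50, 11.88, 11.44, 11.83 and 12.05 in High lines. Clone 2F1 was the 1 Low line inside the High range. The means of 12.19 ± 0.30 and 11.74 ± 0.26 (SD, n = 5) differed by -0.45 (95% confidence interval -0.78 to -0.12), with a limma unadjusted p of 0.0126 and an adjusted p of 0.472. With each line left out in turn the unadjusted limma p ran from 0.00101 to 0.0357, and without clone 2F1 the classes no longer overlapped.

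Tnfaip3 encodes A20, a ubiquitin-editing protein that NF-kB induces and that shuts NF-kB signalling down. Low lines measured 9.27, 8.77, 8.95, 9.31 and 9.18, and High lines 8.44, 8.61, 8.64, 8.76 and 9.10. Only clone 5D4 among the High lines exceeded the lowest Low line. The means of 9.10 ± 0.23 and 8.71 ± 0.24 (SD, n = 5) differed by -0.39 (95% confidence interval -0.67 to -0.10), a 1.31-fold higher signal in Low lines, with a limma unadjusted p of 0.0126 and an adjusted p of 0.472. The unadjusted limma p ran from 0.00157 to 0.0353 as lines were left out, and without clone 5D4 the classes separated. Nfkbia, which encodes the inhibitor that holds NF-kB in the cytoplasm, measured 10.49 and 10.48, a difference of -0.01 (95% confidence interval -0.16 to 0.14).

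The promoter windows of these genes are shown because both had their lower mean in High lines. That of Ptgs2 is chr1:150099781-150100080 on the plus strand, and that of Tnfaip3 chr10:19015361-19015660 on the minus strand, both from RefSeq on GRCm38.p6, with capitals as for Cxcl1.
Ptgs2: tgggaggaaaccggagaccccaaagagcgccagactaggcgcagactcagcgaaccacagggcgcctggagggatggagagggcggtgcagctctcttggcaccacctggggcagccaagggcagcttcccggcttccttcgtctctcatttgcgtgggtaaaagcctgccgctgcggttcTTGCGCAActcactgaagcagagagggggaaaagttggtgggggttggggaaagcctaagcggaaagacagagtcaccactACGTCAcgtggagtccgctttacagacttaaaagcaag
Tnfaip3: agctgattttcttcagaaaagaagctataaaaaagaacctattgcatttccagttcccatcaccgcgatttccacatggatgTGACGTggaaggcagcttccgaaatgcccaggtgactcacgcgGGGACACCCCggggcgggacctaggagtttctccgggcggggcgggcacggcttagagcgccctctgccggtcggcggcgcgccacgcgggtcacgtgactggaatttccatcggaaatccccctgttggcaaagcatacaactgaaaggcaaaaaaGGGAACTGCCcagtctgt
The Ptgs2 window holds TTGCGCAA 69 bases before the start and ACGTCA just after it, and no match to the NF-kB motif. The Tnfaip3 window holds GGGACACCCC 125 bases before the start, GGGAACTGCC after it, and TGACGT 168 bases before it. Tnfaip3 has another RefSeq start, whose window is not printed. Across the 32851 windows of the table, 20.7% held the NF-kB motif, 10.8% TTNNGCAA and 7.51% TGACGT on either strand. Among the 31 windows of 26 members the shares were 38.7%, 32.3% and 19.4%. These windows include members that were not tested, Il1r1, Il1rl1 and C3 among them. A match in these letters is not a measured binding site, and sequences that depart from these letters were left unmarked.

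Acute phase and innate defence genes held the most variable member. Lcn2 measured 7.55, 10.80, 9.38, 7.63 and 8.33 in Low lines and 10.38, 8.59, 9.27, 10.25 and 8.22 in High lines. Clones 2D7, 3F4 and 5C4 stood at 10.25 or more, clones 2F1 and 4E3 at 9.38 and 9.27, and the other 5 at 8.59 or less, with lines of both classes at each level. Only 0.177% of tested genes had at least its range. The means of 8.74 ± 1.37 and 9.34 ± 0.96 (SD, n = 5) differed by 0.60 (SE 0.61, 95% confidence interval -0.73 to 1.94). The limma adjusted p was 0.82. Without clone 2D7 the difference was 1.12 (limma adjusted p = 0.582), and without clone 1E7 it was 0.31 (limma adjusted p = 0.952), the extremes over the 10 lines left out. The window at its start, chr2:32387690-32387989 on the minus strand of GRCm38.p6, is printed for this widest range.
Lcn2: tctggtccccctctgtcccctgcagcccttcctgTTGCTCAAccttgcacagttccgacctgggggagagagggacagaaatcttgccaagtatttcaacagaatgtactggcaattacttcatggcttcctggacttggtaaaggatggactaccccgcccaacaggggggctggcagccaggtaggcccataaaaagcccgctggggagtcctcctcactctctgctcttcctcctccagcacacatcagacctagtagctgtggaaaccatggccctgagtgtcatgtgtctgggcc
It held 1 match, TTGCTCAA, which is 216 bases before the start.

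Ptx3, for a secreted pentraxin that binds microbes and complement, measured 10.28, 11.24, 10.88, 10.70 and 11 in Low lines and 11.09, 11.52, 11.12, 11.21 and 10.13 in High lines. Clones 5D4 and 1E7 were lowest, and the other 4 High lines ran from 11.09 to 11.52. Its difference of 0.19 became 0.41 without clone 5D4 (limma adjusted p = 0.487). Tnfaip6, for a hyaluronan-binding protein induced by tumour necrosis factor, measured 8.88, 9.18, 8.06, 8.79 and 9.29 in Low lines. High lines measured 8.68, 8.34, 9.08, 8.02 and 9.73, so the lowest and the highest value were both High. The difference of -0.07 (SE 0.30) became 0.02, 0.04, 0.04 and 0.12 without clone 2D7, 4H4, 4D2 or 5C4. Saa3, a serum amyloid A gene of fat and inflamed tissue, lay near the filter, with class means of 6.49 and 6.47.

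The line at the top differed from gene to gene. Clone 2D7 was among the highest 3 lines in 8 of the 11 variable members, the exceptions being Ccl9, Cxcl1 and Cxcl12. Clone 4D11 was among the lowest 3 in 7 and clone 1E7 in 6, and all 3 clones are Low lines. Clone 5D4 was among the highest 3 for Ccl5, Ccl8, Ccl11 and Tnfaip6 and among the lowest 3 for Cxcl1, Cxcl5, Cxcl12, Lcn2 and Ptx3. These counts describe the 11 genes, which were picked by their range.

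Of 10 pairs of members that were listed for comparison across lines, 5 had both genes above the filter. Ccl2 and Ccl7 followed each other, with Pearson's r of 0.94 (permutation p = 0.00011, adjusted p = 0.00055 over the 5 pairs) and Spearman's rho of 0.98 (permutation p = 4e-05, adjusted p = 0.0002), n = 10. Without the 2 lines farthest from the median of Ccl2, clones 1E7 and 4D11, r was 0.94. They are neighbours of similar sequence, and a part of probes shared by the genes was not tested. Cxcl1 and Cxcl5 had r of 0.74 (permutation p = 0.0143, adjusted p = 0.0357) and rho of 0.72 (permutation p = 0.0231, adjusted p = 0.0579), and r of 0.64 without clones 1E7 and 4D11. With 1 line left out, r ran from 0.69 to 0.81 and the adjusted exact permutation p passed the threshold in 3 of 10 cases.

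The sign of r for Cxcl1 and Ccl2 turned once clones 1E7 and 4D11 were set aside. Over all lines r was 0.49 (permutation p = 0.151, adjusted p = 0.188) and rho 0.16 (permutation p = 0.653, adjusted p = 0.653), and r was -0.53 without those clones. Within Low lines r was 0.73, and within High lines it was -0.76. Saa3 and Lcn2 had r of 0.65 (permutation p = 0.04, adjusted p = 0.0666) and rho of 0.67 (permutation p = 0.0384, adjusted p = 0.064), and r of 0.72 without clones 3F4 and 4D2. Cxcl12 and Cxcl14 had r of 0.14 (permutation p = 0.687, adjusted p = 0.687) and rho of 0.22 (permutation p = 0.535, adjusted p = 0.653), and r of 0.38 without clones 4E3 and 5D4.

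**Figure D4:**
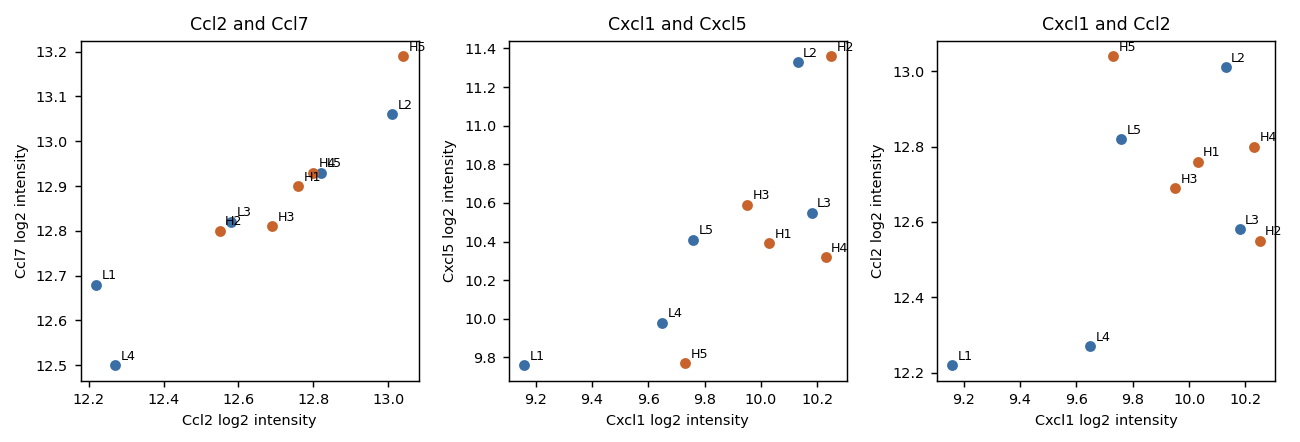
Log2 intensities of 3 pairs of members in the 5 Low lines (L1 to L5, blue) and 5 High lines (H1 to H5, orange), 1 point per line. Ccl2 and Ccl7 lie close to a straight line (r of 0.94), Cxcl1 and Cxcl5 spread more (r of 0.74), and for Cxcl1 and Ccl2 (r of 0.49) L1 and L4 lie apart at the lower left.

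Complement was represented by Cfb, the factor B gene of the alternative pathway, whose average was 7.22 ± 0.12 over Low and 7.26 ± 0.15 over High lines (SD, n = 5). A list of 29 other complement components and regulators had 21 tested genes. None passed in limma, and the median difference was 0.096. At an unadjusted limma p under 0.05, 3 (14.3%) were higher and 0 lower in High lines, beside 3.16% higher and 4.79% lower over all tested genes. C1s1 and C1ra encode the proteases of the first complement component and lie together on chromosome 6. C1s1 measured 8.28, 7.60, 8.89, 8.43 and 8.76 in Low lines and 9.81, 9.39, 9.50, 9.15 and 8.71 in High lines, where clone 5D4 alone lay inside the Low range. Its difference was 0.92 (95% confidence interval 0.39 to 1.45), with a limma unadjusted p of 0.00259 and an adjusted p of 0.308. C1ra differed by 0.45 (limma adjusted p = 0.418) and C2, of the classical pathway, by 0.21 (limma adjusted p = 0.511). With neighbouring genes subtracted, C1s1 differed by 0.81 and C1ra by 0.34, the neighbours themselves by 0.11. Both have close relatives in the mouse genome, C1s2 and C1rb, and shared probes were not tested.

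Around Ptgs2, 12 of 15 genes of prostaglandin synthesis and reception were tested, and 0 passed in limma. At an unadjusted limma p under 0.05, 2 (16.7%) were higher and 1 (8.33%) was lower in High lines, beside 3.16% and 4.79% of all tested genes. The lower gene was Pla2g4a, for the phospholipase that releases arachidonic acid for cyclooxygenases. It measured 11.79, 11.63, 11.59, 11.66 and 11.81 in Low lines and 11.51, 11.51, 11.47, 11.36 and 11.55 in High lines, without overlap, as 1.04% of all tested genes did in that direction. The difference was -0.22 (limma adjusted p = 0.404). The higher genes were the prostacyclin receptor gene Ptgir, by 0.28 (limma adjusted p = 0.428), and the prostaglandin F receptor gene Ptgfr, by 0.53 (limma adjusted p = 0.489).

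The NF-kB pathway itself had 26 of 32 genes tested, with 1 (3.85%) higher and 1 (3.85%) lower at an unadjusted limma p under 0.05, beside 3.16% and 4.79% of all tested genes, and 0 past the adjustment. The higher count was 3 without clone 2D7 or 4H4 and 0 without 2F1 or 5D4. The lower count was 2 without clone 2F1 and 0 without 3F4 or 5D4. Nfkbie, for another cytoplasmic NF-kB inhibitor, differed by 0.45 (limma adjusted p = 0.527) and Traf6, an adaptor of interleukin-1 and Toll-like receptors, by -0.16 (limma adjusted p = 0.517). Of 23 cytokine receptor and JAK-STAT genes 21 were tested. Of these, 0 passed, and 4 (19.0%) were higher and 0 lower at an unadjusted limma p under 0.05, beside 3.16% and 4.79% of all tested genes. The higher count was 0 without clone 3F4, 1 without 4D11, 4E3 or 5C4 and 2 without 1E7 or 4H4. It was 1 higher and 1 lower after arrays were centred on their medians, and 2 higher with neighbouring genes subtracted or with a block for the first digit of clone names. The 3 with the smallest p were the tumour necrosis factor receptor gene Tnfrsf1a at 0.20, Csf2rb, the shared receptor chain of several growth factors, at 0.23, and the Mif receptor gene Cd74 at 0.39. Tnfrsf1a lies on chromosome 6 as well and differed by 0.09 with its neighbours subtracted. Among 22 tested chemokine receptors and other chemokines, 0 passed. At an unadjusted limma p under 0.05, 0 were higher and 0 lower, beside 3.16% and 4.79% of all tested genes.

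All 11 fibroblast and preadipocyte markers that had a probe set, Pdgfra, Pdgfrb, Col1a1 and Dlk1 among them, passed the filter. The log2 of their summed intensities, in which the brightest genes weigh most, was 16.51 to 16.60 in Low and 16.53 to 16.64 in High lines. At an unadjusted limma p under 0.05, 2 of the 11 (18.2%) were higher and 0 lower in High lines. Over all tested genes, 3.16% were higher and 4.79% lower. Thy1, a surface protein gene of fibroblasts, differed by 0.34 (limma adjusted p = 0.511), and Pdgfra, a growth factor receptor gene, by 0.33 (limma adjusted p = 0.628). All 5 High lines lay above the Low mean for each gene, and the classes overlapped. The filter was passed by 16339 of the 19937 genes with a probe set. Of 14 leukocyte markers with a probe set, 9 passed it (Cd68, Csf1r, Lyz2, Tyrobp, Fcer1g, Cd14, Cd3e, Ly6g and S100a9). The pan-leukocyte gene Ptprc, the macrophage genes Adgre1 and Itgam, the B cell gene Ms4a1 and the neutrophil gene S100a8 did not pass. In at least 5 arrays, 3 of the 14 exceeded the array median of 7.74 to 7.84, as did all 11 fibroblast and preadipocyte markers. The log2 of the summed intensities of the leukocyte markers was 11.02 to 11.16 in Low and 11.10 to 11.32 in High lines. Of the 9 that passed the filter, 2 (22.2%) were higher and 1 (11.1%) was lower in High lines at an unadjusted limma p under 0.05. Fcer1g differed by 0.19 and S100a9 by 0.20, both higher in High lines, and Csf1r by -0.16 (limma adjusted p = 0.42, 0.559 and 0.574). Classes did not overlap for Fcer1g and Csf1r. Over all tested genes, 0.526% did not overlap with High lines higher and 1.04% with High lines lower. The part of these markers in the members' values was not tested.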

How the data were processed

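RNA of 10 clones, 5 Low and 5 High, was measured on 1 array each. The values deposited by the authors are log2 intensities per probe set, made with RMA per the submitters' processing notes. Neither its version and settings nor a batch was stated in the labels. Of 34760 probe sets, 21640 carried 1 gene symbol in the platform annotation and 1321 several. The classes were compared with lmFit and eBayes of limma 3.58.1 under R 4.3.3, two-sided, with Benjamini-Hochberg adjustment over 16339 genes at 0.05. Pairs were tested with 100000 permutations, and exactly where 9 lines remained. Python 3.11.15, pandas 2.3.3, numpy 2.4.6 and matplotlib 3.10.9 were used. The fit was tested on simulated data. The number of arrays limits precision, and p-values rest on the spread between these lines, in which clone and array differences are mixed. Values by line were given for members above the filter with a range of at least 1, an unadjusted p under 0.05 or classes without overlap. Up to 3 genes per pathway list, those with the smallest p under 0.05, were named, and line values were added for C1s1 and Pla2g4a. Exceptions chosen after their values were seen are C1s1, Pla2g4a, Il6, Ccl2, Ccl7, the fibroblast markers named and the leukocyte markers under the filter. Members and lists were chosen with earlier results of these data known. Alternatives covered filter, normalization, variance model, array weights, probe sets, clone digit, neighbouring genes and each line left out. Promoter windows came from RefSeq, assembly GRCm38.p6, where 26 of 34 members had one.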

Additional observations from a re-analysis of the deposited data

Results flagged for a closer look

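Within a class of 5 lines, 1 line stood apart from the other 4 in 3 of 52 sets of values examined. A rate of about 1 in 20 would give 2.6. That rate is not an expectation for these sets, because genes named here were picked in part by their range or p in these data. Ccl11 was 9.20 in High replicate 5 (clone 5D4), against 7.79 to 8.11 in the other High lines. Ptgfr was 10.05 in the same line, against 9.18 to 9.43. Il6 was 7.08 in Low replicate 2 (clone 2D7), against 5.07 to 5.50 in the other Low lines.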

How the results depend on the processing

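No paired analysis was possible because replicate numbers were given in accession order and pair no lines. No member passed the adjusted threshold under any alternative run, and Ptgs2 and Tnfaip3 kept their sign and an unadjusted p under 0.05 in all of them. Of 473 values for 25 single genes under alternatives, 460 kept their sign and 13 reversed. The count of members higher at an unadjusted p under 0.05 went from 0 to 2 (Cxcl5 and Cxcl12) with a block for the first digit of clone names, a fit that rests on the 4 lines whose names start with 4. Over the lines left out it was 0 to 2, the 2 being Ccl2 and Lcn2 without Low replicate 2 and Cxcl12 and Ptx3 without High replicate 5, and the count lower was 2 to 3. Classes without overlap numbered 0 to 1 with a line left out. Members with a range of at least 1 went from 11 to 5 at a range of at least 1.5, to 10 after median centring or subtraction of neighbouring genes, and to 9 without High replicate 5. Over all tested genes, 3.16% were higher and 4.79% lower at an unadjusted limma p under 0.05. Genes of the 5 pathway lists (26, 21, 22, 21 and 12 tested) at that threshold numbered 10 higher and 2 lower. They were 5 and 1 with the clone digit as a block, and 5 to 13 and 1 to 4 with a line left out, the extremes being 5 and 1 without High replicate 1 and 4 lower without Low replicate 2. The cause was not tested. Signs turned to -0.06 for Ccl8 with the clone digit as a block and to 0.03 for Tnfaip6 with array weights. With a line left out, Tnfaip6 ran from -0.31 to 0.12, Ccl5 from -0.39 to 0.04, Ccl9 from -0.02 to 0.34, Ccl11 from -0.15 to 0.20 and Cxcl5 from -0.14 to 0.31. The correlation of Cxcl12 and Cxcl14 turned to -0.06 with median centring and to -0.09 with neighbours subtracted. That of Cxcl1 and Cxcl5 ran from 0.69 to 0.81 with a line left out, and missed the adjusted threshold without Low replicates 1, 2, 4 or 5 or High replicates 2, 3 or 5.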

Other observations

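In the lists of related genes, Serping1 and Ppbp had the widest ranges, and they were chosen after their values were seen. Serping1, for the inhibitor of the first complement component, measured 8.78, 8.05, 8.32, 7.54 and 10.68 in Low replicates 1 to 5 and 8.76, 10.11, 8.36, 8.57 and 8.65 in High replicates 1 to 5, a range of 3.14. Clones 4H4 and 4D2, of opposite classes, lay above 10.1 and all others below 8.8. Ppbp, a chemokine gene beside Cxcl5, measured 9.56, 11.12, 10.13, 9.86 and 11.92 in Low lines and 10.14, 10.76, 9.92, 10.08 and 9.88 in High lines, a range of 2.36. Clone 4H4 was highest for both genes.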
